A study of Mus musculus with 12 samples.

Results

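Peaks of H3K27ac and H3K4me1 were followed around 10 genes for transcription factors that pattern the front of the mouse neural plate: Otx2, Six3, Hesx1, Lhx2, Rax, Fezf1, En1, Gbx2, Lmx1b and Barhl1. These are 10 of the 21631 protein-coding genes of the mouse gene table, chosen by name and not by their values. Each gene was given a territory, every base within 100 kb that has an end of this gene, and no end of another protein-coding gene, as the closest. The share of a gene is the number of its territory's bases covered by peaks per megabase (Mb) covered in the whole list.

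The embryos were of the strain C57BL/6 and carried no named allele or treatment. They had been sorted by morphology into 6 stages, here named as in the labels: Pre_PS, before the primitive streak (E6.0); ES, with an early streak (E6.0 and E6.5); MS, with a middle streak (E6.0 and E7.0); LS, with a late streak (E7.0 and E7.25); OB, with no allantoic bud yet (E7.25 and E7.5); and EHF, at the early headfold (E7.5). Chromatin was profiled with CoBATCH, in which an antibody directs the transposase Tn5 to marked nucleosomes of single cells, and each stage and mark gave 1 list of broad peaks. Tissue outside the embryo proper was taken off at Pre_PS, ES, MS and LS, per the labels' protocols, which do not mention this for OB and EHF. The number of embryos and cells behind a list is not given in the sources used here. With 1 list for each of the 12 pairs of stage and mark, there was no replicate spread to hold a difference between stages against, and no test was possible.

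The early neural plate is divided along its length by transcription factors that repress one another. Otx2 is needed for forebrain and midbrain, Gbx2 for the anterior hindbrain, and the line where they meet places the isthmus, a signalling centre that secretes Fgf8. En1 and Lmx1b act around that centre, Barhl1 marks parts of the diencephalon and later midbrain, and Six3, Hesx1, Lhx2, Rax and Fezf1 act further forward, in the forebrain and the eye field. H3K27ac is found at active promoters and enhancers, and H3K4me1 at enhancers that are active or poised.

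Sequences before the start sites are shown because the genes differed in whether peaks covered the start. They are the 250 bases upstream of start sites in RefSeq's promoter windows (GRCm38.p6), 5′ to 3′ on the gene's strand, with each CG dinucleotide in capitals. The table held 14 start sites of 9 of the 10 genes; Rax was not matched. Otx2 has 4 start sites, all on the minus strand; the most upstream, at 48667644 on chromosome 14, follows chr14:48667645-48667894 and never lay in a peak, while the one at 48665109, inside the gene, follows chr14:48665110-48665359 and lay in peaks of both marks at ES, MS, LS, OB and EHF.
Otx2, start at 48667644: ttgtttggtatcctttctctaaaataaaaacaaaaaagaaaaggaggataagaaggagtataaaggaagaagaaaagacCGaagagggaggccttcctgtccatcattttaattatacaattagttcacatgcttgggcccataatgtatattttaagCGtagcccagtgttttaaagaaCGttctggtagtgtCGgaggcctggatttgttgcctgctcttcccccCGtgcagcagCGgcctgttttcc
Otx2, start at 48665109: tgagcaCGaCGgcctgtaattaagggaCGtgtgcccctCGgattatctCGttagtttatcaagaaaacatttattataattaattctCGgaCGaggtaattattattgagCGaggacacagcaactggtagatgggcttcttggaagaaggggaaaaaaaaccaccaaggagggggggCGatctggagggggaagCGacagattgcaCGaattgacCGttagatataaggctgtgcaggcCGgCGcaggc
Gbx2 (chr1:89931177-89931426, minus strand) and En1 (chr1:120602237-120602486, plus strand) were covered at their start sites at all 5 stages from ES on.
Gbx2: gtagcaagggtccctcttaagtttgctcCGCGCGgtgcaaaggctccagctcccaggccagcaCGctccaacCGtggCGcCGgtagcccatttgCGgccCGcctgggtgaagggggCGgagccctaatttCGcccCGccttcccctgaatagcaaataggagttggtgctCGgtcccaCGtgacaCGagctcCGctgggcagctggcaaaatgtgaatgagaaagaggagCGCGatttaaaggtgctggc
En1: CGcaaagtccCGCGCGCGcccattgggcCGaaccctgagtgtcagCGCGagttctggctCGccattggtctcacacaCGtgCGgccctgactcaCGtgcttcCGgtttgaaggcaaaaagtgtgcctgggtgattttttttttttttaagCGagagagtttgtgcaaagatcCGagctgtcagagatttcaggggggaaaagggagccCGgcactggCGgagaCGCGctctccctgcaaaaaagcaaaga
Six3 (chr17:85620584-85620833, plus strand) and Hesx1 (chr14:27000112-27000361, plus strand) had no covered base in this stretch in any list.
Six3: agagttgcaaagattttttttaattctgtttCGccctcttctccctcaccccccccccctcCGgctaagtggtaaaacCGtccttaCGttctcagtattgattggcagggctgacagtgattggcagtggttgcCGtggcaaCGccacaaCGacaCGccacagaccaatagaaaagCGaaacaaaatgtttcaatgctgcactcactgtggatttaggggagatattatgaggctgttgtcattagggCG
Hesx1: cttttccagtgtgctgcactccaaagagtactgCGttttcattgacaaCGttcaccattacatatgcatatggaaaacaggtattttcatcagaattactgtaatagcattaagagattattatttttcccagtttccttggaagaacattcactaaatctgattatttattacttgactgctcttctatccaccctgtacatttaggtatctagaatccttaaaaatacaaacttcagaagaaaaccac

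These stretches differ in base composition. CG dinucleotides numbered 6 and 14 at the uncovered and covered Otx2 starts, 18 at Gbx2, 19 at En1, 10 at Six3 and 2 at Hesx1, and the median of all 21045 such stretches was 10.0. Lhx2 had 25 and 24 at its starts, Lmx1b 19, Fezf1 12, Barhl1 7 and 12, and the other two Otx2 starts 8 and 9. Of the motifs searched on both strands, TAATTA, bound by many homeodomain proteins, occurred in 4.24% of all stretches, and TAATCC, the type of site that OTX proteins bind, in 5.77%. The covered Otx2 start had 3 matches of TAATTA and 1 of TAATCC, and the uncovered one had 1 match of TAATTA. Among the other members, TAATCC matched once, before the Barhl1 start at 28912495, and TAATTA matched nowhere else. ACAAAG, a SOX-type site, was found in 15.0% of all stretches and in none of the 14. A match describes these letters and does not show binding.

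Depth bears on every value below. At the weakest peaks, the background was 0.0499 fragments for H3K27ac at Pre_PS against 0.211 to 0.330 at later stages, and 0.0144 for H3K4me1 at Pre_PS against 0.164 to 0.347. Peaks at the lowest fold and p-value of their list are called floor peaks. The territories of the 10 genes held 626 peaks, of which 36 were floor peaks, and 22 of these 36 were among the 46 peaks of H3K4me1 at Pre_PS. The Pre_PS lists also covered less in total. For H3K27ac the total was 14.3 Mb at Pre_PS against 35.9 to 42.1 Mb later. For H3K4me1 it was 23.4 Mb against 39.1 to 51.3 Mb. A share can thus be higher at Pre_PS where fewer bases were covered. Pre_PS values are therefore given but not used in the main comparison. Among the later H3K4me1 lists EHF had the lowest total, 39.1 Mb, so a share can be higher there too where fewer bases were covered. All 8 genes of a neural plate marker list were covered at every stage in both marks, beside 47.8% (H3K27ac) and 59.6% (H3K4me1) of all genes. Their summed H3K27ac share was 1489.6 covered bp per Mb at Pre_PS and 1251 to 1375 at later stages. Because Pre_PS, before the streak, had this coverage too, it does not show that a neural plate was present. Markers of other tissues were covered too. At all 5 later stages, 67.6% of all genes had H3K27ac peaks. So did all 6 mesoderm markers (summed share 624 to 766), 7 of 8 trophoblast markers (986 to 1093) and 6 of 7 epiblast markers (236 to 261). Of the visceral endoderm markers 5 of 8 did (219.5 to 275), with Afp and Ttr at 0 in every H3K27ac list. In an adult tissue reference list 2 of 10 did. With so few genes a list, these counts do not show which tissues were present. The part of cells of other tissues in the differences below was not tested. In these pools of cells, fewer cells of a type and less mark per cell cannot be told apart.

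Marks lay at 9 of the 10 genes in every list. Hesx1 was the exception. The 9 genes were covered at all 6 stages by H3K27ac and by H3K4me1, beside 47.8% and 59.6% of all protein-coding genes, and at all 5 stages from ES on beside 67.6% and 70.5%. Shares at the 9 genes from ES on ran from 71.2 covered bp per Mb (Rax, H3K4me1 at ES) to 931 (Lmx1b, H3K4me1 at EHF), against medians over all genes of 26.0 to 27.3 for H3K27ac and 23.2 to 24.8 for H3K4me1. A large territory favours a large share: territories measured 171 kb at Lmx1b, 159 at Otx2, 154 at En1, 113 at Lhx2, 108 at Six3, 67.8 at Fezf1, 38.1 at Hesx1, 36.8 at Rax, 30.1 at Barhl1 and 20.0 at Gbx2. As the covered part of the territory, the order changed: at EHF H3K27ac covered 30.4% at Gbx2, 18.4% at Barhl1, 15.5% at Lmx1b, 9.30% at Rax, 7.54% at Six3, 7.31% at Lhx2, 5.30% at Fezf1, 3.60% at Otx2 and 2.53% at En1. Neighbours in this order, such as Six3 and Lhx2, cannot be separated without replicates.

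**Figure D1:**
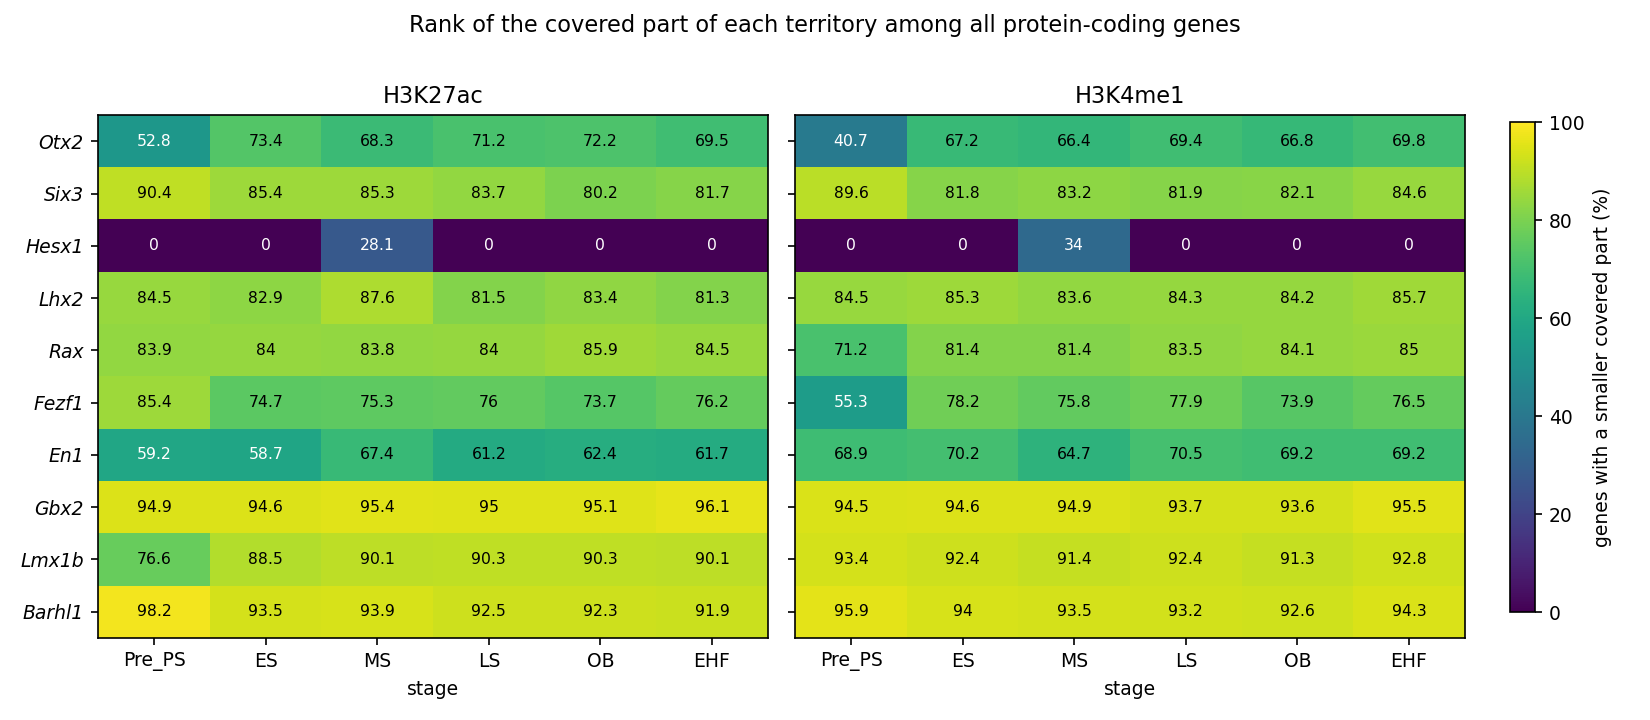
Heat map of the covered part of each territory, ranked among all 21631 protein-coding genes, for H3K27ac (left) and H3K4me1 (right), with genes in rows and stages in columns. Each cell gives the percentage of genes with a smaller covered part. Gbx2 and Barhl1 stood above 91.9% of genes or more in the H3K27ac lists and 92.6% or more in the H3K4me1 lists, En1 and Otx2 stood lower, and Hesx1 was at 0 outside MS.

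Otx2, the head organiser and forebrain and midbrain factor, had the largest relative step between Pre_PS and ES among the 9 covered genes. For H3K27ac the share was 29.1 covered bp per Mb in the Pre_PS list, 186 at ES, 145 at MS, 169.6 at LS, 182 at OB and 158 at EHF. From ES to EHF the values stayed between 145 and 186 and showed no order, with a mean of 165 over ES and MS and 169.8 over OB and EHF. At Pre_PS the only H3K27ac peak was a floor peak of 415 bp, in a list whose background was lower as given above, and whether depth made the difference was not tested. H3K4me1 shared the step from Pre_PS to ES, with 28.0, 132, 129, 149, 130.1 and 157, but its highest stage was EHF and that of H3K27ac was ES. In bases, H3K4me1 at EHF (6124 bp) was below ES (6516 bp), LS (7638 bp) and OB (6627 bp). Both H3K4me1 peaks at Pre_PS were floor peaks in places where no later list had a peak.

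The Otx2 territory held 10 regions once the peaks of all lists were merged, and 6 of them, in and beside the gene, carried H3K4me1 at all 5 later stages. The region with the most H3K27ac bases (chr14:48664796-48666968, inside the gene) contained the start site at 48665109 and had 2173, 1976, 2107, 2069 and 1990 covered bp of H3K27ac from ES to EHF. H3K4me1 covered 2031, 1789, 1994, 2051 and 1925 bp of it. A second stretch upstream of the gene, chr14:48673425-48675552, whose edge lay 5.78 kb from the gene, had 1929, 1904, 2002, 1776 and 1825 bp of H3K27ac and 1915, 1760, 2097, 1973 and 1678 bp of H3K4me1. The width of both stretches therefore differed little among the 5 later stages. Between them, chr14:48668494-48669340 narrowed on H3K27ac from 817 bp at ES to 647, 587, 490 and 423 bp, while H3K4me1 there had 618, 533, 809, 771 and 514 bp. Downstream of the gene, chr14:48651382-48652229 carried H3K4me1 at all 5 later stages and H3K27ac at all of these but MS. One distal region, chr14:48720840-48721899, with its nearest edge 53.2 kb upstream, had H3K27ac at ES and, as a floor peak, at LS, and H3K4me1 at LS and, as a floor peak, at EHF.

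**Figure D2:**
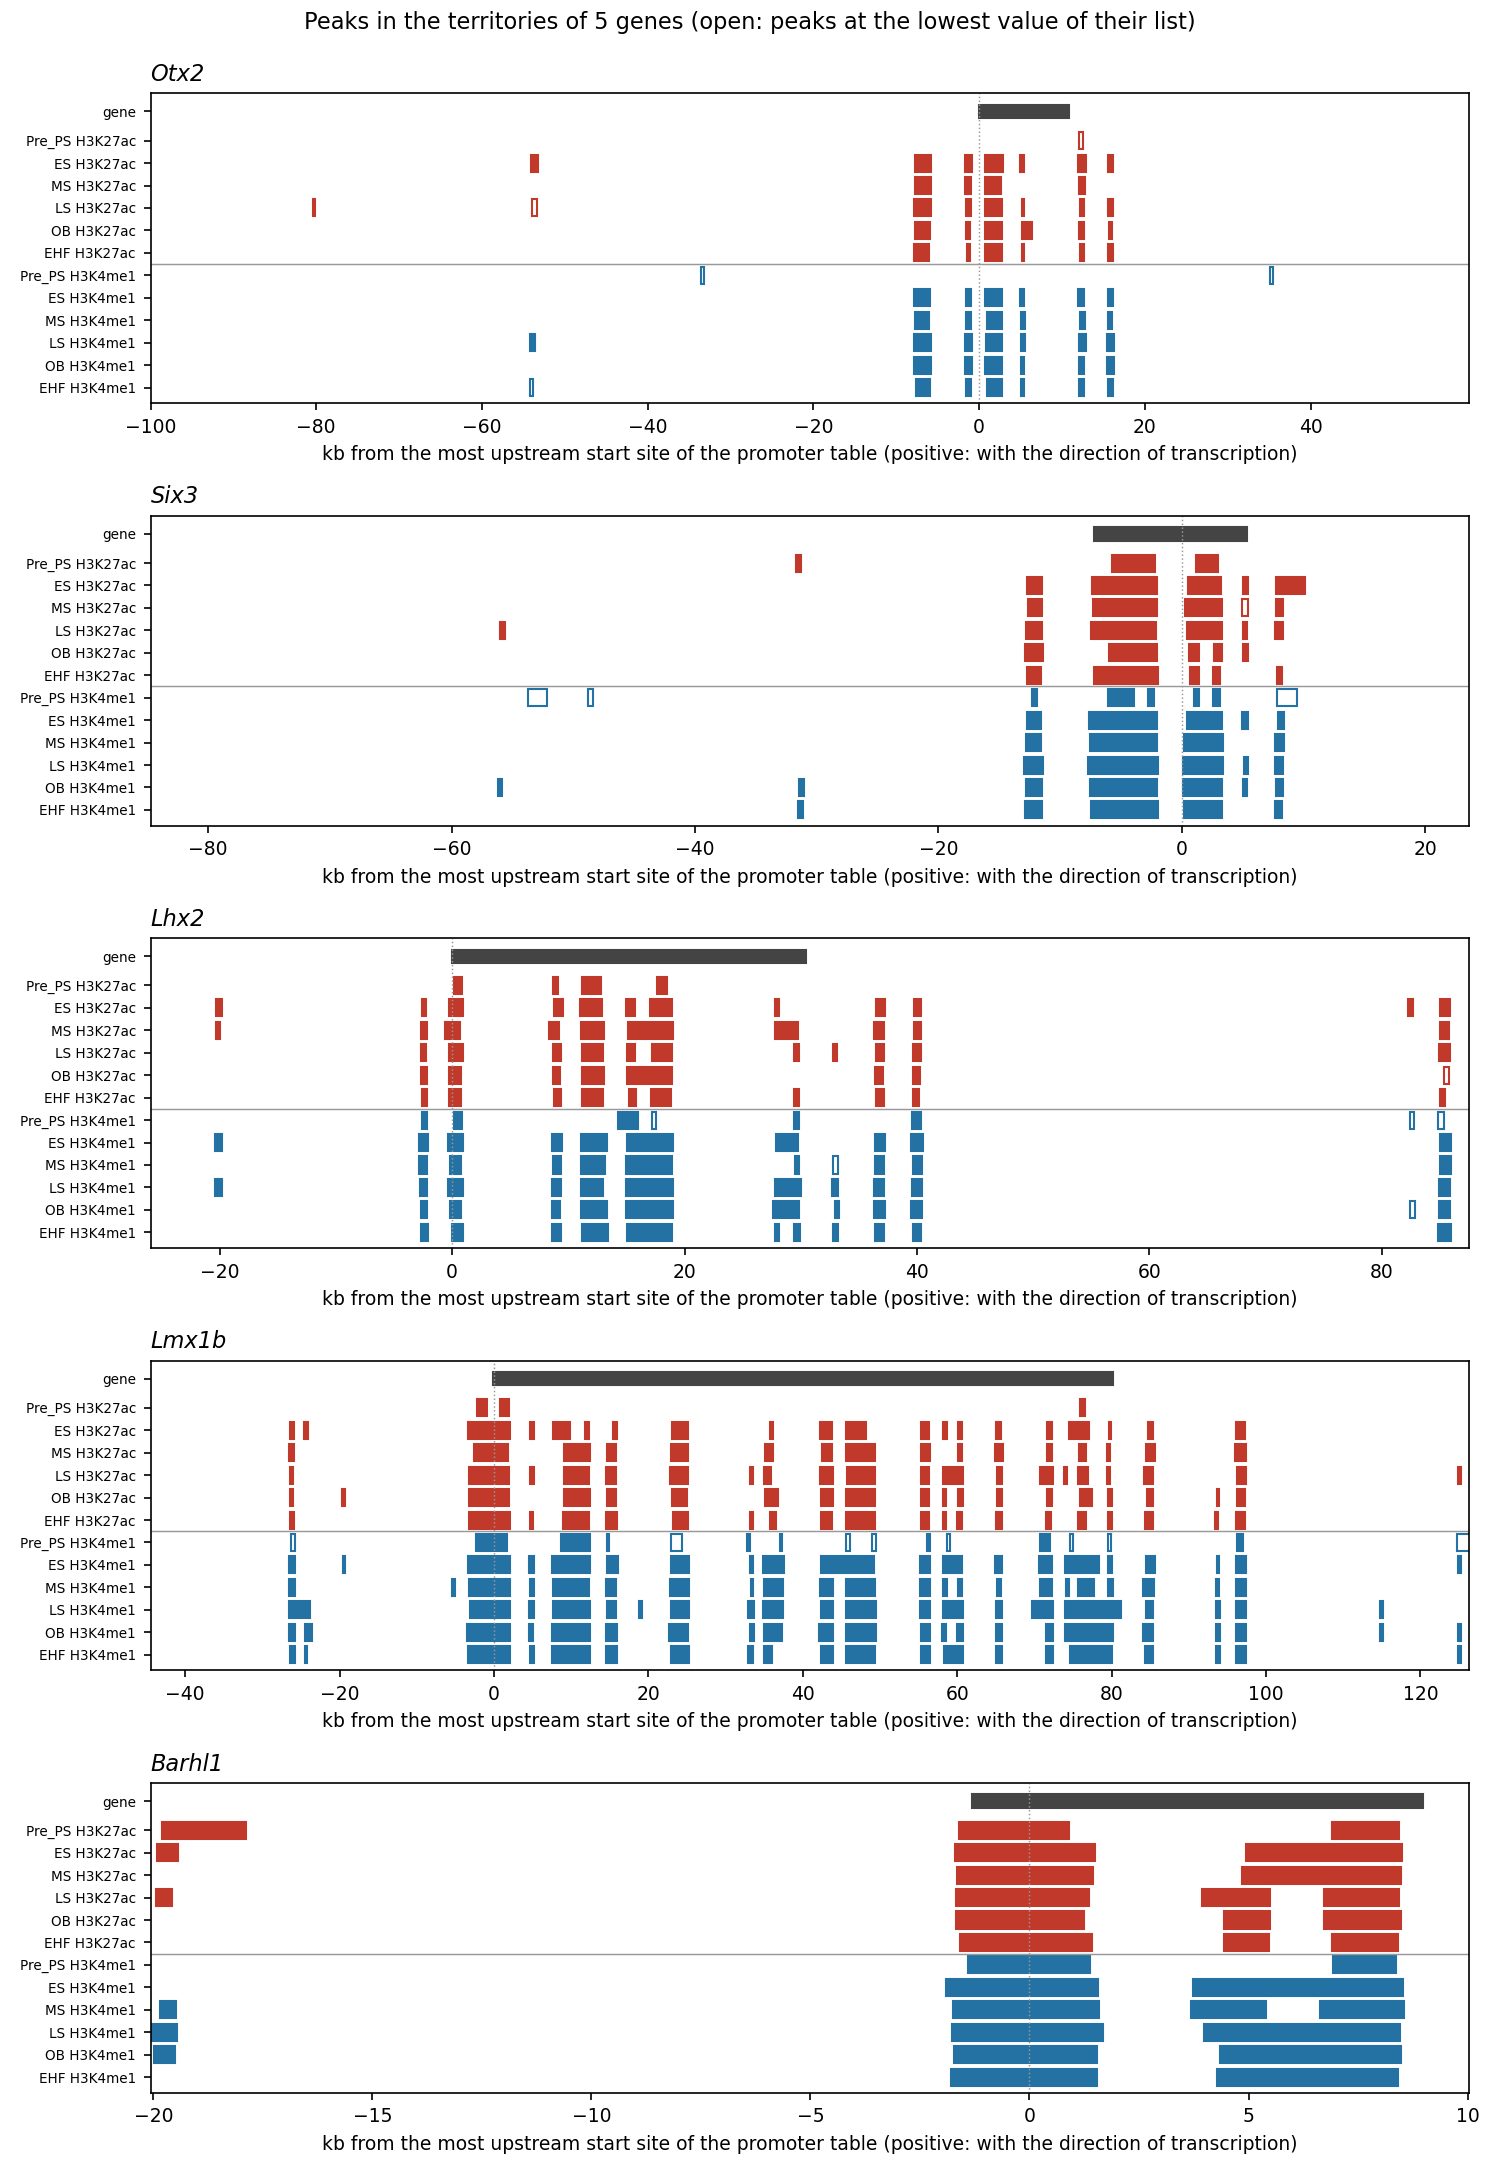
Maps of the peaks in the territories of Otx2, Six3, Lhx2, Lmx1b and Barhl1, with distance in kb from the most upstream start site of the promoter table on the x axis and 1 row per list; red marks H3K27ac, blue H3K4me1, open boxes floor peaks and grey bars the gene. At Six3 the H3K27ac block downstream of the start was 2708 bp at ES and 1310 bp at EHF while the H3K4me1 block below it covered 2826 to 3222 bp from ES on, and at Lmx1b peaks ran along the whole gene.

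Six3, a repressor of Wnt1 that the anterior forebrain and eyes need, was the forebrain gene whose H3K27ac differed most between early and late stages. H3K27ac gave it a share of 406 covered bp per Mb in the Pre_PS list, 290.5 at ES, 289 at MS, 260.0 at LS, 202 at OB and 226 at EHF. In bases, the Pre_PS list covered 5788 bp, fewer than the 12033 bp at ES and the 7338 bp at OB. Both OB and EHF were below both ES and MS, and the late minus early difference of the means was -75.9 (214 against 289.6, a ratio of 0.738). H3K4me1 did not share this order: it was 321 at Pre_PS, 215 at ES, 242 at MS, 224 at LS, 228 at OB and 278 at EHF, with means of 229 and 253 whose stages overlapped.

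The lower H3K27ac of Six3 lay mainly in 3 places. In the region of chr17:85620959-85624184, just downstream of the start site, H3K27ac covered 2708, 3042 and 2855 bp at ES, MS and LS but 1473 and 1310 bp at OB and EHF, where the single peak had become 2 narrower ones. H3K4me1 covered 2826, 3184, 3222, 3188 and 3094 bp of the same region, so the narrowing was seen in 1 mark only. Past the gene, chr17:85628482-85630991 had 2436 bp of H3K27ac at ES, 528 at MS, 643 at LS, 0 at OB and 472 at EHF, and H3K4me1 there had 553 to 760 bp from ES on. The widest region, chr17:85613119-85618861, had 5311, 5237, 5384, 3998 and 5267 bp of H3K27ac, with OB alone narrower, and 5452 to 5743 bp of H3K4me1. The gene table begins Six3 at 85613608, so most of this region lies inside its span although upstream of the start site in the promoter table. At chr17:85607911-85609417, the region farthest from the gene that stayed through the later stages, H3K27ac covered 1221, 1121, 1324, 1491 and 1120 bp, without the late narrowing. A small region at chr17:85589162-85589764, with its nearest edge 31.1 kb upstream of the start site, had H3K4me1 peaks at OB (369 bp) and EHF (362 bp) that ES, MS and LS lacked, and its only H3K27ac peak was at Pre_PS.

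Hesx1, a repressor needed for the forebrain and the pituitary, had almost no peaks. In its 38.1-kb territory, 10 of the 12 lists had no covered base. At MS, H3K4me1 had 1 floor peak of 300 bp (chr14:27008289-27008588, 6.78 covered bp per Mb) and H3K27ac covered 50 bp at the far edge, where a peak of 616 bp reached in from the neighbouring territory. The lists give no value below the peak threshold.

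Lhx2, a LIM-homeodomain factor of the forebrain and eye field, was covered by both marks throughout. The H3K27ac share was 251 covered bp per Mb in the Pre_PS list, 250.2 at ES, 366 at MS, 231 at LS, 265 at OB and 229 at EHF, so MS stood alone and the other 5 stages lay between 229 and 265. The mean of OB and EHF minus that of ES and MS was -60.9, but OB was above ES. In bases, OB and EHF (9642 and 8298 bp) were both below ES and MS (10365 and 13139 bp). H3K4me1 shares were 221, 296, 261, 283, 279.7 and 317, and MS was the lowest of the 5 later stages there. All 12 regions of the territory carried both marks in at least 1 list, and 8 of the 12 carried both at all 5 later stages. Inside the gene, chr2:38353578-38358327 had 3895 bp of H3K27ac at MS and 3874 at OB but 2668, 2456 and 2389 at ES, LS and EHF, as 1 long peak in the first pair and 2 shorter ones in the rest, while H3K4me1 covered 3886 to 4079 bp at all of these stages. Near the end of the gene, chr2:38366899-38369273 had 1968 bp of H3K27ac at MS, 318 at ES, 389 at LS, none at OB and 378 at EHF. The region farthest from the gene, chr2:38424107-38425253, with its edge 54.4 kb from the gene's end, was covered in 11 of the 12 lists, H3K27ac at Pre_PS being the one without it. Upstream, chr2:38318861-38319515 had H3K27ac at ES (448 bp) and MS (349 bp) and not later, and H3K4me1 at ES (648 bp) and LS (594 bp) only.

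Rax, the homeodomain factor that starts eye formation, had a higher share of both marks at the late stages. H3K27ac covered a share of 77.5 bp per Mb in the Pre_PS list, 88.3 at ES, 86.7 at MS, 90.9 at LS, 106 at OB and 94.5 at EHF. Its H3K4me1 share was 34.2, 71.2, 71.8, 85.9, 89.7 and 97.3 in the same order, each stage above the one before. OB and EHF exceeded ES and MS in both marks, by 13.0 on average for H3K27ac (87.5 against 100.5) and 22.0 for H3K4me1 (71.5 against 93.5, a ratio of 1.31). In covered bases not divided by the list's total, H3K4me1 was also higher at both late stages (3518 and 3178 bp at ES and MS, 4571 and 3802 at OB and EHF), whereas the H3K27ac stages overlapped (3660, 3114, 3873 and 3422 bp). ES and MS were also the later-stage H3K4me1 lists with the lowest background (0.185 and 0.164, against 0.240 at EHF and 0.329 at OB), and the part of depth in this difference was not tested. Most of the coverage lay at both ends of the gene. The region with the most H3K27ac bases, chr18:65933403-65935775, had 2336, 2059, 2182, 2142 and 2191 bp of H3K27ac from ES on, and 2070, 1205, 2225, 2307 and 2089 bp of H3K4me1. The other end, chr18:65937718-65939328, had 1055 to 1349 bp of H3K27ac and 1298 to 1463 bp of H3K4me1. Of the remaining regions, chr18:65942442-65942951, with its edge 3.35 kb outside the gene, carried H3K4me1 at MS, LS, OB and EHF (316 to 421 bp) but not at ES, and H3K27ac only at LS.

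Fezf1, a zinc-finger repressor of the forebrain, varied little from ES on. The H3K27ac share stood at 161 covered bp per Mb at Pre_PS and then at 85.5, 90.1, 95.2, 84.7 and 99.4 from ES to EHF, with OB as the lowest and EHF as the highest of the later stages. Its H3K4me1 share was 29.2 at Pre_PS and then 106, 91.3, 105, 81.2 and 96.2. The Pre_PS share was thus above all later stages for H3K27ac and below them for H3K4me1. In bases, Pre_PS was below every later stage in both marks. H3K27ac covered 2302 bp against 3083 to 4012 bp, and H3K4me1 685 bp against 3760 to 5371 bp. Both H3K4me1 peaks at Pre_PS were at the floor and the H3K27ac peak was above it. The territory held 3 regions, of which chr6:23234294-23234775 had a single H3K27ac peak of 482 bp, at LS. A longer-lasting one, chr6:23245528-23250077, inside the gene and over the start site, had 2428 to 2862 bp of H3K27ac from ES on and 2999 to 4500 bp of H3K4me1. The other, upstream at chr6:23253410-23254648, had 1074, 729, 731, 655 and 736 bp of H3K27ac and 723 to 932 bp of H3K4me1.

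En1, a homeodomain factor of the midbrain and anterior hindbrain, had a higher share of H3K4me1 than of H3K27ac at every stage but MS. For H3K27ac the share was 61.8 covered bp per Mb at Pre_PS and 90.3, 134, 103, 109 and 108 from ES to EHF. H3K4me1 stood at 128 and then at 149.7, 115, 153, 143 and 147. MS was the highest of the 6 stages for H3K27ac and the lowest for H3K4me1, and a floor peak of 1020 bp made up part of the H3K27ac value at MS. Without floor peaks, OB and EHF lay above ES and MS for H3K27ac. The start site and the first part of the gene, chr1:120601836-120605399, carried 3025 to 3373 bp of H3K27ac and 3335 to 3530 bp of H3K4me1 from ES on. Further inside the gene, chr1:120606635-120607520 had 591, 578, 698, 564 and 522 bp of H3K27ac and 738 to 810 bp of H3K4me1. Other regions nearby had H3K4me1 and little or no H3K27ac. Downstream of the gene, chr1:120613407-120614790 had 1187, 514, 1338, 1384 and 1203 bp of H3K4me1, and its only H3K27ac was the floor peak of MS. Upstream, chr1:120596214-120597769 had H3K4me1 at ES, MS, LS and OB and H3K27ac in no list. Closer to the gene, chr1:120599669-120600253 had H3K4me1 at LS (506 bp), OB (497 bp) and EHF (387 bp) but not at ES or MS, and H3K27ac at OB alone (389 bp).

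Gbx2, the hindbrain partner that sets the posterior limit of Otx2, had the most densely covered territory of the 10 from ES on for both marks. It is also the shortest, cut close to the start site by the predicted gene LOC102637806. Its H3K27ac share was 132 covered bp per Mb at Pre_PS and 133, 154, 136, 146 and 168 from ES to EHF. Its H3K4me1 share was 98.0 and then 119.7, 129, 114, 114 and 148. In share, EHF was the highest of the 6 stages in both marks, while OB lay within the range of the earlier ones. In bases, EHF was also the highest for H3K27ac (6076 bp, against 5299 to 5740 bp from ES to OB). For H3K4me1 it was not (5769 bp, against 5705 to 5912 bp). A single region over the gene, chr1:89926845-89931625, had 4667, 4530, 4677, 4471 and 4781 bp of H3K27ac and 4723, 4747, 4681, 4675 and 4655 bp of H3K4me1, ending where the territory ends. At Pre_PS this was already one of the stronger H3K27ac peaks of its list: 98.0% of that list's peaks ranked at or below it by q-value. Downstream, chr1:89922462-89923785 had 846, 998, 1063, 828 and 1295 bp of H3K27ac and 958 to 1189 bp of H3K4me1. Side by side, the late minus early differences of Otx2 and Gbx2 were 4.45 and 13.2 for H3K27ac and 12.8 and 6.48 for H3K4me1, with overlapping stages in each case. Whether their signs matched depended on the setting: the H3K27ac differences were -23.6 and 13.5 with the upper 50% of each list and -288 and 167 bp undivided, and the H3K4me1 differences were 5.45 and -0.979 with equal numbers of peaks per list.

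Lmx1b, a LIM-homeodomain factor that maintains Fgf8 at the isthmus, had the largest share of the 10 genes at all 5 later stages, and in H3K4me1 also at Pre_PS. In H3K27ac it had 219 covered bp per Mb in the Pre_PS list, 599 at ES, 701 at MS, 729 at LS, 742 at OB and 732 at EHF. OB and EHF were above ES and MS by 87.4 on average (649.7 against 737, a ratio of 1.13), and ES was farther from MS than MS was from OB. With the upper 50% of each list alone the difference was -20.1. H3K4me1 shares were 729, 802, 771, 858, 771 and 931, and their stages overlapped. In bases, H3K4me1 at EHF (36366 bp) was below ES (39610 bp), LS (44052 bp) and OB (39298 bp). The territory held 22 regions, 19 with both marks and 3 with H3K4me1 only, and 14 carried both marks at all 5 later stages. Only 4.54% to 5.87% of the covered H3K4me1 bases lay within 1 kb of the start site from ES on. The start region, chr2:33639008-33644527, had 5514, 4481, 5254, 5101 and 5219 bp of H3K27ac and 5210 to 5502 bp of H3K4me1. Far inside the gene, chr2:33591630-33598975, with its edge 42.1 kb from the start site, had 4106, 4977, 5311, 5248 and 5010 bp of H3K27ac and 5225 to 6912 bp of H3K4me1. At chr2:33628627-33633612, 7.49 kb from the start site, H3K27ac covered 2662, 3423, 3326, 3370 and 3347 bp against 4721 to 4917 bp of H3K4me1. Past the end of the gene, chr2:33546999-33547734 had H3K27ac at OB (352 bp) and EHF (460 bp) and not before, while H3K4me1 was there at all 5 later stages (326, 457, 633, 445 and 489 bp). The farthest region, chr2:33514774-33516420, cut by the territory's edge, had H3K4me1 at ES, OB and EHF besides Pre_PS, and H3K27ac at LS only.

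Barhl1, a homeodomain factor of the diencephalon and midbrain, had less H3K27ac at the late stages. The share was 419.8 covered bp per Mb in the Pre_PS list, 175 at ES, 187 at MS, 158 at LS, 158 at OB and 153 at EHF. In bases, the Pre_PS list covered 5984 bp, against 7254 bp at ES and 5741 bp at OB. OB and EHF were both below ES and MS, with a difference of the means of -25.6 (156 against 181, a ratio of 0.859). For H3K4me1 the shares were 179.7, 168, 165, 166, 155 and 191, and the stages overlapped. The difference lay mostly within the gene: chr2:28908125-28912985 had 3560, 3625, 3258, 2810 and 2542 bp of H3K27ac, the peak being single at ES and MS and split in 2 from LS on. H3K4me1 covered 4807, 3634, 4469, 4136 and 4140 bp there. The start region, chr2:28914990-28918573, had 3213, 3101, 3044, 2931 and 3011 bp of H3K27ac and 3273 to 3473 bp of H3K4me1. The distal region, chr2:28934547-28936706, had 1923 bp of H3K27ac at Pre_PS, 481 at ES and 356 at LS and none at MS, OB or EHF, with H3K4me1 at MS, LS and OB.

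**Figure D3:**
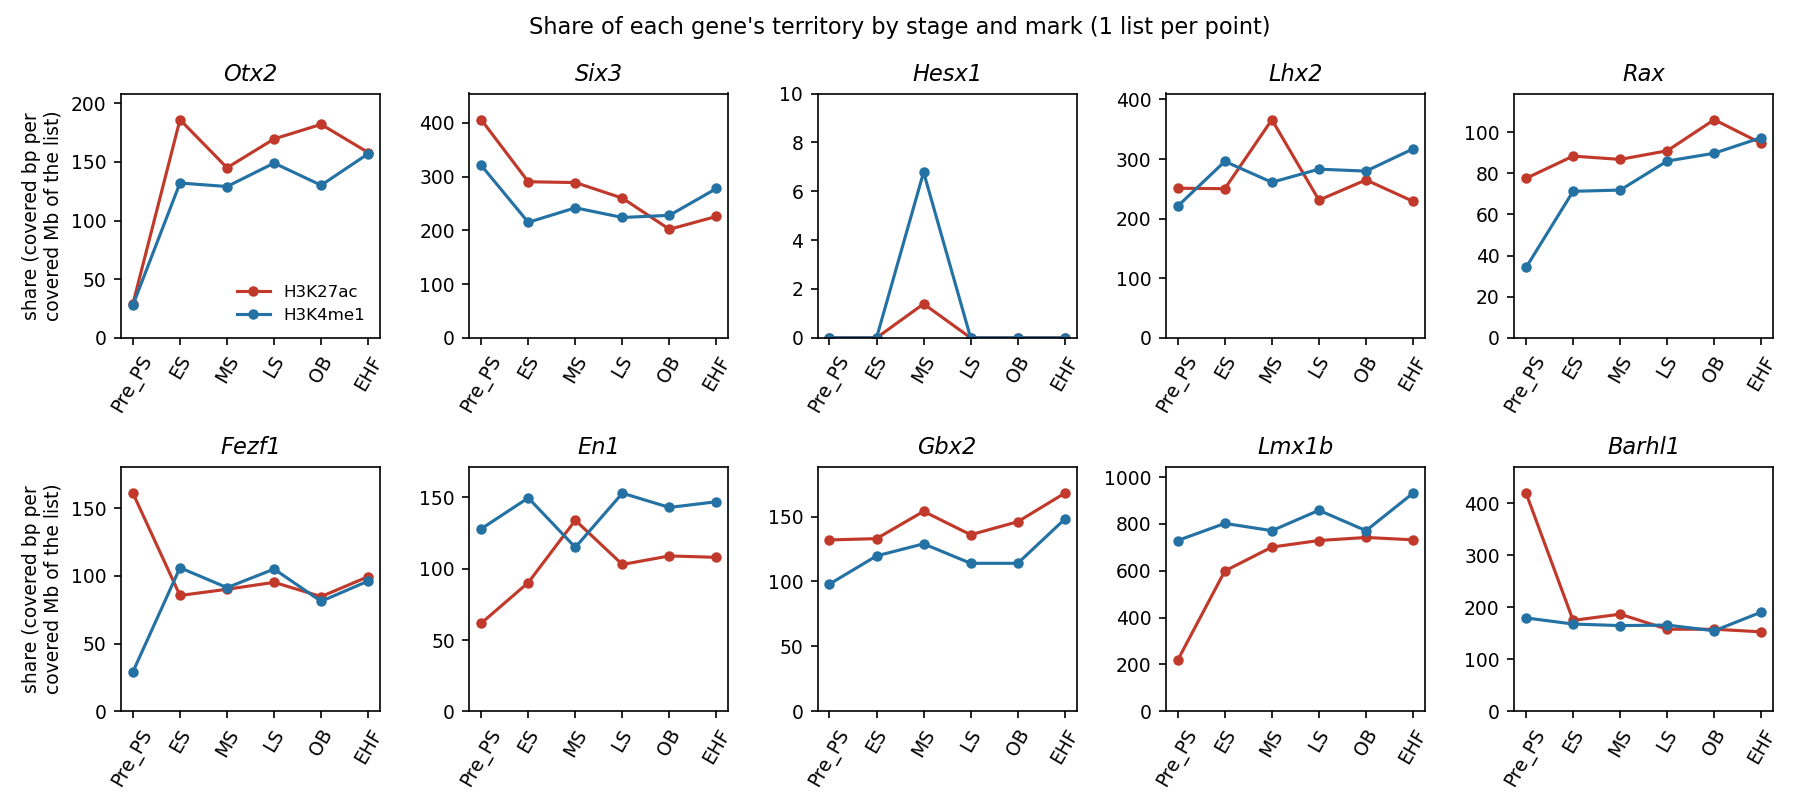
Line plots of the share of each gene's territory, in covered bp per covered Mb of the list, over the 6 stages for H3K27ac (red) and H3K4me1 (blue), with 1 list per point. The y axes differ between genes and start at 0. The H3K27ac line of Six3 goes from 290.5 at ES to 202 at OB, the H3K4me1 line of Rax climbs at every stage, and Otx2 steps from 29.1 to 186 between Pre_PS and ES and then stays level. The Six3 value of 406 at Pre_PS rests on 5788 covered bp, against 12033 bp at ES and 7338 bp at OB.

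Counted over the 10 genes, H3K27ac was higher at OB and EHF than at ES and MS at 2 (Rax and Lmx1b), beside 20.2% of the 17119 protein-coding genes with coverage, and lower at 2 (Six3 and Barhl1), beside 12.8%. H3K4me1 was higher at 1 (Rax), beside 14.4% of 17798 genes, and lower at 0, beside 13.2%. These counts are near the shares over all genes, and no result about the group as a whole can be read from them. Without dividing by the list's total, 12.3% of all genes were higher and 20.5% lower for H3K27ac, and 11.1% higher and 16.2% lower for H3K4me1. The median difference of the 10 genes was 1.78 covered bp per Mb for H3K27ac and 12.8 for H3K4me1, beside 0.887 and 0.464 over all genes. Neither median held its size across settings: with equal numbers of peaks per list that of H3K4me1 was -0.119, beside -0.167 over all genes, and with the upper 50% of each list that of H3K27ac was -5.10, beside 0.457. Sizes stood out more than counts: the H3K27ac difference of Six3 was lower than that of all but 0.222% of genes, that of Lhx2 than all but 0.415%, and that of Lmx1b exceeded 99.8%, though genes with large shares also have large differences. The stages of Lhx2 overlapped in share, though not in covered bases. With the upper 50% of each list, Lhx2 (73.5) and Lmx1b (-20.1) had the other sign. Six3 (-77.9) did not, but its stages overlapped under that setting. As a ratio of late to early means, H3K27ac ran from 0.738 at Six3 to 1.15 at Rax among the 9 covered genes.

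**Figure D4:**
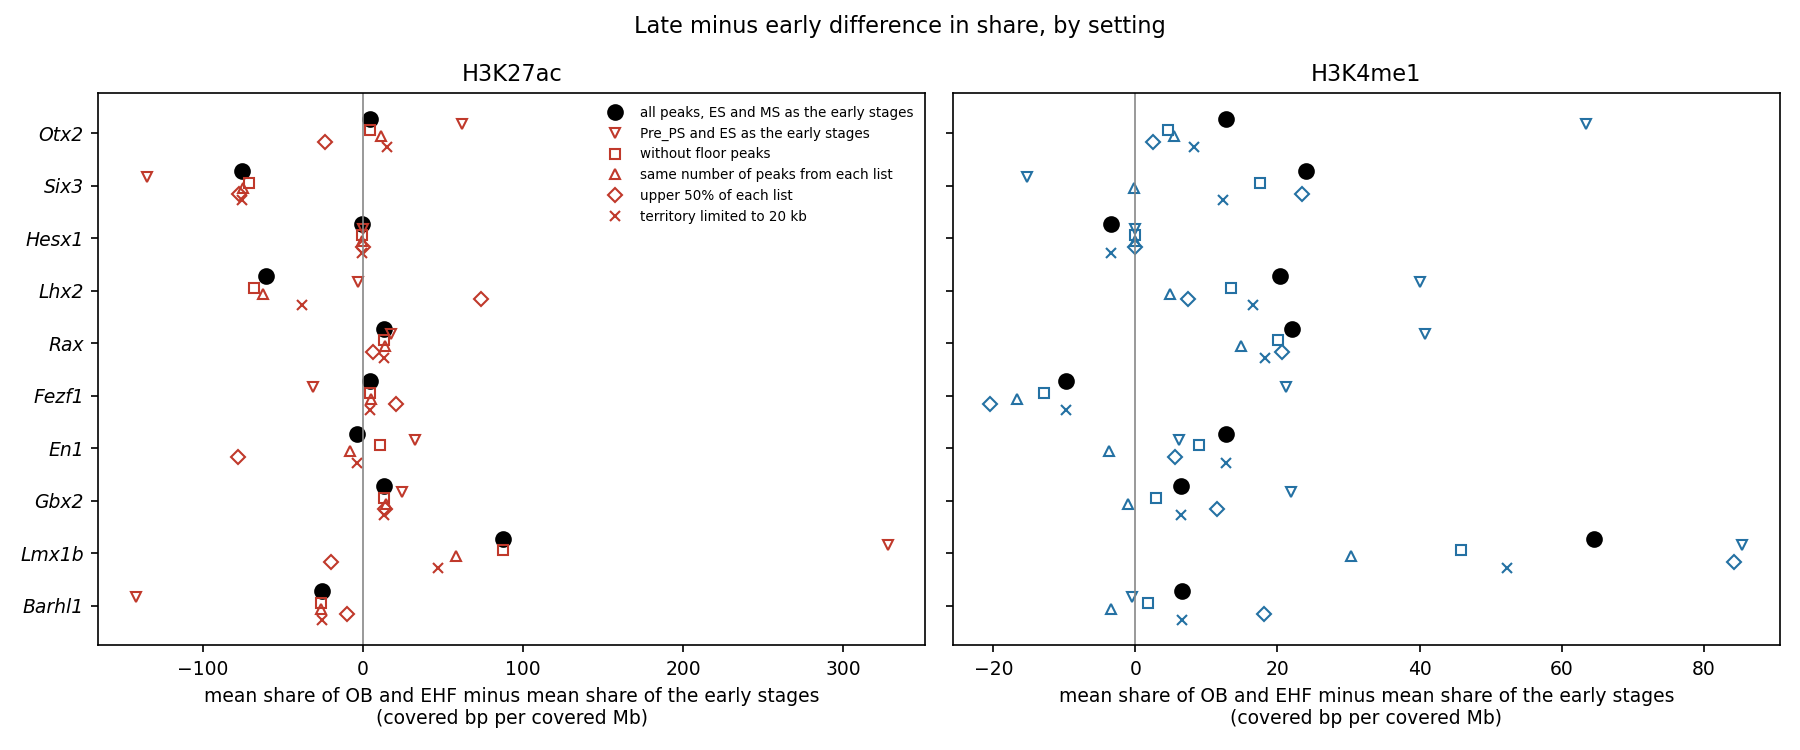
Late minus early difference in share (mean of OB and EHF minus mean of the early stages, covered bp per covered Mb) for each gene, H3K27ac on the left and H3K4me1 on the right, with black points for all peaks and the early stages ES and MS, and open symbols and crosses for the alternatives named in the key. For H3K27ac, Six3 stayed left of 0 and Rax right of 0 under every setting drawn, Lmx1b crossed to -20.1 with the upper 50% of each list, and Lhx2 crossed to 73.5.

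Coverage of the start sites was counted in windows. A start window was the 250 bases before to 50 after a start site. Of the 14 windows, 8 overlapped an H3K27ac peak at all 5 later stages, beside 56.1% of all 21045 windows, and 8 overlapped an H3K4me1 peak at all 5, beside 57.3%. These counts are near the shares over all windows, and no result about the 10 genes is read from them. The 8 were the same for both marks and belonged to Gbx2, En1, Lmx1b, Fezf1, both starts of Lhx2, the Barhl1 start at 28916668 and the Otx2 start at 48665109. All but the upstream Lhx2 window were covered over their full 300 bases by both marks at all 5 stages. In that window H3K4me1 covered 300, 218, 300, 236 and 24 bases from ES to EHF, and H3K27ac 294 to 300. Hesx1, Six3 and the Otx2 starts at 48667644 and 48667508 had 0 covered bases in all 12 lists. The remaining windows were the Barhl1 start at 28912495, covered at LS by H3K27ac and at ES, MS and LS by H3K4me1, and the Otx2 start at 48662734, touched by H3K4me1 at ES alone. At Six3 peaks flanked the window on both sides, the nearer one starting 0.125 kb downstream of the start site.

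The marks shared most of their places. Merged over stages, 68 H3K27ac regions lay in the 10 territories, 65 of which (95.6%) H3K4me1 also overlapped, beside 91.3% of all H3K27ac regions. Of 72 H3K4me1 regions, 60 (83.3%) also had H3K27ac, beside 59.9% of all. For H3K4me1 this gap was smaller at 86.8% beside 72.0% without Pre_PS, and at 89.1% beside 75.5% without floor peaks. H3K27ac was present at all 5 later stages in 42 of its 68 regions (61.8%), beside 43.5%, and H3K4me1 in 47 of 72 (65.3%), beside 35.0%. Regions found at Pre_PS alone count as not present here, which lowers the H3K4me1 share over all more than that at the 10 genes. Without Pre_PS there were 63662 H3K4me1 regions in place of 77300 over all, and 68 in place of 72 at the 10 genes. When peaks of both marks were merged together there were 76 regions, 22 of them at Lmx1b. Both marks were present at all 5 later stages in 39 of the 76, and 8 carried H3K4me1 at all 5 with H3K27ac at fewer. No region had H3K27ac at all 5 and H3K4me1 at fewer. Regions of both marks merged together were not counted over all genes, so these counts are not read as a trait of the 10 genes.

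Other genes of the same brain regions were counted from fixed lists. The shares over all genes to hold these counts against are those given above: for H3K27ac 20.2% higher, 12.8% lower and 67.6% covered at all 5 later stages, with a median difference of 0.887, and for H3K4me1 14.4%, 13.2%, 70.5% and 0.464. The lists hold 8 to 15 genes, so a gap of a few genes from these shares is given as a count and not read as a result about the list. Of 15 forebrain and eye field genes, all were covered at all 5 later stages in both marks. For H3K27ac 1 was higher at OB and EHF and 0 lower, with a median difference of -1.19 covered bp per Mb, and for H3K4me1 1 was higher and 1 lower (median 1.33). Pax6, an eye and forebrain factor, was the one with higher H3K27ac, with shares of 159 at ES, 132 at MS, 183 at OB and 186 at EHF, and its H3K4me1 was lower (203 and 234 against 200.2 and 197). Emx2, a factor of the dorsal forebrain, had higher H3K4me1 (152 and 199 against 215 and 271). In covered bp not divided by the list's total, H3K27ac was lower at 7 of the 15, beside 20.5% of all genes, and H3K4me1 at 5, beside 16.2%. Undivided H3K27ac was higher at 1 (Pax6), beside 12.3%, and H3K4me1 at 3 (Emx2, Sp8 and Foxd1), beside 11.1%.

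Of 14 midbrain and isthmus genes, H3K27ac was lower at 4, beside 12.8% of all genes, and higher at 0, beside 20.2% (median difference -9.18). H3K4me1 was lower at 2, beside 13.2%, and higher at 3, beside 14.4% (median 0.470). Barhl2, the paralogue of Barhl1, had H3K27ac shares of 246 at ES, 294 at MS, 208 at OB and 194 at EHF. Fgf18, a ligand of the isthmus, had 184 and 178 against 154 and 146. Dmbx1, a homeodomain factor of the midbrain, had 183 and 199 against 156 and 174 for H3K27ac, but for H3K4me1 155 and 194 against 202 and 257. En2, the paralogue of En1, was lower in both marks (105 and 92.9 against 75.2 and 91.3 for H3K27ac, 174 and 178 against 168 and 158 for H3K4me1). With equal numbers of peaks per list, H3K27ac in this group was lower at 1 gene (Barhl2) and higher at 3 (Wnt1, Gbx1 and Irx2). Over all genes that setting gave 12.5% lower and 25.0% higher.

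Of 8 hindbrain genes, H3K27ac was higher at 3, beside 20.2% of all genes, and lower at 0, beside 12.8% (median difference 18.3). H3K4me1 was higher at 2, beside 14.4%, and lower at 0, beside 13.2% (median 11.1). Hoxa2, a Hox gene of the hindbrain, had H3K27ac shares of 28.2 at ES, 36.6 at MS, 54.7 at OB and 58.0 at EHF. Irx3, an Iroquois factor, had 211 and 219 against 234 and 248 for H3K27ac and 199 and 207 against 228 and 245 for H3K4me1. With the upper 50% of each list, 1 of the 8 (Hoxb1) was higher for H3K27ac, beside 15.1% of all genes.

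Of 10 genes of the anterior signalling sources, which pattern the neural plate from the tissues beneath, 9 had coverage and Cer1 had none in any list. H3K27ac was lower at 3, beside 12.8% of all genes, and higher at 2, beside 20.2% (median difference -10.5). H3K4me1 was lower at 1, beside 13.2%, and higher at 1, beside 14.4% (median -5.87). Lhx1, a head organiser factor, had H3K27ac shares of 249 and 181 at ES and MS against 154 and 160.3. Gsc, a factor of the organiser, was lower in both marks, with 157 and 149.9 against 141 and 133 for H3K27ac and 224 and 207 against 132 and 159.5 for H3K4me1. Foxa2, a factor of the node and its derivatives, had higher H3K27ac (148 and 152 against 174 and 185). Undivided, H3K27ac was lower at 6 of the 10, beside 20.5% of all genes, and higher at 1 (Foxa2), beside 12.3%.

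Genes with a like course over the 5 later stages were sought among the 14487 genes covered in all 10 later lists. For Otx2 the highest mean Pearson r over both marks was 0.942 with Dyrk1a, followed by Fam193b (0.923) and Bcam (0.921). For Gbx2 it was 0.993 with Cetn3, followed by Ddhd2 (0.991) and Pank1 (0.986). Each r rests on 5 points a mark, all genes share the same libraries and their depth, and with so many genes compared such values describe these lists only.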

How the data were processed

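H3K27ac and H3K4me1 were profiled in mouse embryos of 6 stages, with 1 list each. The tools named in the submitters' processing notes are Bowtie2, Picard, MACS2 and deepTools, and the build mm10 (versions: not given in the sources used here). All 12 files hold broad peaks. The deposited fold is the authors' ratio of pileup over background and was used to find floor peaks. Both −log10 p and −log10 q were deposited by the authors, and −log10 q ranked peaks within a list. The deposited score was not used.

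Peaks on chromosomes 1 to 19 and X were intersected with territories of the RefSeq table of GRCm38.p6, the assembly that mm10 names. The 6 lists of each mark were merged into regions, and 1 shared bp counted as overlap. A gene was called higher or lower where OB and EHF both lay above or below ES and MS. Depth was read from floor peaks, with fold = (pileup + 1)/(background + 1), a Poisson p, pileups up to 20 and a tolerance of 0.001 on −log10 p. Python 3.11.15, numpy 2.4.6, pandas 2.3.3 and scipy 1.17.1 were used. Territory coverage, tested on simulated data (20 simulations of this comparison, 240 genes), differed from the known value at 0 genes.

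Named were the 10 members, at each the region with the most H3K27ac bases and the region farthest from the gene's ends at 3 or more later stages, and regions present early and absent late or the reverse. Further regions were chosen after their values were seen. List genes named are among those with the largest differences, apart from En2 and the members of small counts, which were named after their values were seen. The members and lists were chosen with earlier results of these data known. 6 alternatives were tried for the comparison of stages. Values of 1 hindbrain list gene are not reported here. Single-cell values were not analysed here.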

Additional observations from a re-analysis of the deposited data

How the results depend on the processing

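Calls over the 10 genes depended on the setting as follows. With Pre_PS and ES as the early stages, H3K27ac was higher at 4 (Rax, En1, Gbx2 and Lmx1b), beside 21.4% of all genes. With the upper 50% of each list by q-value, H3K27ac was higher at 1 (Rax) and lower at 0, H3K4me1 was lower at 1 (Fezf1), and the H3K27ac difference of Lmx1b was -20.1 in place of 87.4. With equal numbers of peaks per list (30072 for H3K27ac, 35646 for H3K4me1), H3K4me1 was lower at 1 (Fezf1), beside 15.3% of all genes. With covered bp not divided by the list's total, H3K27ac was higher at 1 (Lmx1b), beside 12.3% of all genes. It was lower at 3 (Six3, Lhx2 and Barhl1), beside 20.5%, and H3K4me1 was higher at 2 (Six3 and Rax), beside 11.1%. The cause was not tested. Limiting territories to 20 kb moved none of these counts, and leaving out floor peaks, or taking equal numbers of peaks, gave 3 with higher H3K27ac (En1 or Gbx2 beside Rax and Lmx1b). Over all genes these 2 settings gave 20.2% and 25.0%. Under the 6 alternatives, Six3 and Barhl1 kept a lower mean H3K27ac in 6 and their call in 5, and Rax kept a higher mean in 6 for both marks, with its call in 5 for H3K27ac and 6 for H3K4me1. Counts of regions with both marks stayed within 1.5 times under the 3 alternatives tried for them. For H3K4me1 regions the share with H3K27ac ran from 77.8% to 89.1% in the 10 territories under these alternatives. Over all H3K4me1 regions it ran from 53.5% to 75.5%. No paired analysis was possible because each stage and mark had 1 list. Depth limits Pre_PS most, and coverage below a list's peak threshold is not seen.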
